A study of Drosophila melanogaster with 6 samples.

Results

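The E2F and cell cycle genes described here are 10 genes of the deposited gene table: E2f1, E2f2, Dp, Rbf, dap, CycE, stg, CycA, CycB and PCNA. They were taken by symbol and joined by gene identifier to the counts, so that all 10 of 10 were found among the 17611 genes counted. The study asked what happens when the Hox protein Antennapedia (Antp) stays on in developing indirect flight muscle (IFM), the fibrillar muscle that powers the wings, after its normal expression has ended. Act88F-Gal4, a driver under the promoter of the flight muscle actin gene Act88F, was combined with UAS-GFPnls, a nuclear green fluorescent protein that serves as the control, or with UAS-Antp. Both genotypes carried the driver, were kept at 25°C and were dissected at 72 hours after puparium formation (APF). Each genotype had 3 samples, each of hand-dissected IFM pooled from 6 to 8 pupae, and polyA RNA was sequenced. The genotypes are called UAS-GFP (replicates 1, 2 and 3) and UAS-Antp (samples A, B and C).

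E2F transcription factors bind DNA as dimers with Dp and switch on genes for S phase and mitosis. In Drosophila, E2f1 is mainly an activator, E2f2 is mainly a repressor, and the retinoblastoma protein Rbf binds both and silences their targets until cyclin-dependent kinases release it. The nuclei of a flight muscle fibre do not divide, yet E2F and Dp are known to act in Drosophila flight muscle after the cell cycle has ended, where they promote the expression of muscle genes. Levels are given as counts and as CPM (counts scaled to 1000000 per library), adjusted between libraries by TMM, which assumes that most genes do not change. RPKM, the CPM per kilobase of exon, is used only to compare one gene with another.

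With UAS-Antp, both E2f genes and, with TMM scaling but not with library totals, the mitotic phosphatase gene stg were lower, while Dp, Rbf and the Cdk inhibitor gene dap were higher. E2f1 was 4.66-fold lower and E2f2 4.10-fold lower, Rbf was 2.59-fold higher and dap 2.75-fold higher. The cyclin genes CycE, CycA and CycB were at or below 2.26 CPM in all samples and overlapped between genotypes. Thus 6 of the 10 genes passed an adjusted p of 0.001, 3 in each direction, against 35.6% of the 9546 genes tested (16.3% higher and 19.3% lower with UAS-Antp). Scaled by library totals, Dp, Rbf and dap were called higher and E2f1 alone lower, against 59.2% of all genes (52.1% higher and 7.19% lower). In 7 of the 10 the CPM of the genotypes did not overlap, against 68.3% of all genes tested.

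The libraries held 47460809 to 64485309 counts for UAS-GFP and 63217976 to 77781458 for UAS-Antp. Their makeup differed, since the 50 most abundant genes took 50.06% to 52.08% of the UAS-GFP counts and 31.32% to 31.86% of the UAS-Antp counts, and the TMM factors were 0.609 to 0.674 and 1.54 to 1.60. Scaling by library totals alone shifted the median log2 fold change of all genes from 0.17 to 1.48, and the share of calls that were higher with UAS-Antp from 45.8% to 87.9%. The values with library totals are therefore given beside those with TMM where they bear on a direction or a call. The Antp transcript itself, which checks the labels, had 70, 33 and 66 counts in UAS-GFP and 716673, 1092524 and 517985 in UAS-Antp, though the same-strand gene CG46458 covers 3978 of its exon bases.

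E2f1 (FBgn0011766, chr3R:21620304-21660871, minus strand, dm6) was the most abundant of the 10 genes in the control muscle. It had 17784, 12352 and 15253 counts in UAS-GFP replicates 1, 2 and 3, and 10783, 10402 and 8505 in UAS-Antp samples A, B and C. In CPM these were 445, 386 and 419 against 101, 83.4 and 84.1, so that every UAS-Antp sample lay below every UAS-GFP sample, in raw counts as in CPM. The mean fell from 417 ± 29.6 to 89.5 ± 9.86 CPM (SD, n = 3), or by 2.22 on the log2 scale (SE 0.12, adjusted p = 9.53e-08), and the gene also fell with library totals, at -0.90 (adjusted p = 1.73e-05).

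E2f2 (FBgn0024371, chr2L:21154293-21156749, minus strand) encodes the repressor E2F. Its counts were 886, 721 and 788 in UAS-GFP and 531, 609 and 642 in UAS-Antp, or 22.2, 22.6 and 21.7 CPM against 4.97, 4.89 and 6.35 CPM. The control replicates were close together and all 3 UAS-Antp samples were below them, again also in raw counts. The log2 fold change was -2.04 ± 0.16 (adjusted p = 1.38e-06), and with library totals it was -0.72 and no longer past the threshold (adjusted p = 0.00319).

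**Figure D1:**
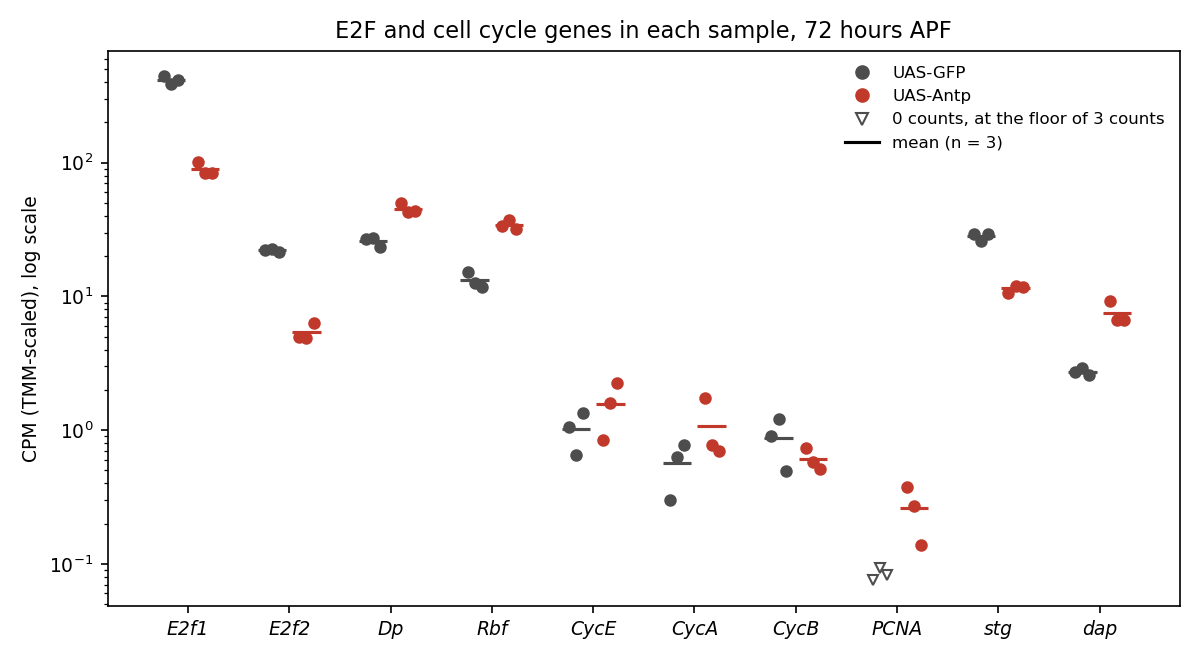
TMM-scaled CPM (log axis) of the 10 genes in each of the 3 UAS-GFP (grey) and 3 UAS-Antp (red) samples, with a line at each mean and open triangles at the floor of 3 counts for samples with 0 counts. E2f1, E2f2 and stg are lower and Dp, Rbf, dap and PCNA higher in all UAS-Antp samples on this scale, whereas scaled by library totals the log2 fold change of stg is 0.02. CycE, CycA and CycB overlap.

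Dp (FBgn0011763, chr2R:13222433-13228202, plus strand), the shared dimer partner of both E2Fs, went the other way. It had 1067, 879 and 859 counts in UAS-GFP and 5304, 5321 and 4419 in UAS-Antp, or 26.7, 27.5 and 23.6 CPM against 49.6, 42.7 and 43.7 CPM. All 3 UAS-Antp samples were above the controls. Dp rose 1.75-fold, with a log2 fold change of 0.81 ± 0.12 (adjusted p = 0.000175), and by 2.12 with library totals. The call was lost without UAS-GFP replicate 3, the lowest control (adjusted p = 0.00146).

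Rbf (FBgn0015799, chrX:797090-801479, minus strand) encodes the main retinoblastoma protein of the fly. It had 607, 400 and 429 counts in UAS-GFP and 3582, 4615 and 3223 in UAS-Antp. These were 15.2, 12.5 and 11.8 CPM against 33.5, 37.0 and 31.9 CPM, and the lowest UAS-Antp sample was above the highest control. Rbf rose by 1.37 ± 0.14 on the log2 scale (adjusted p = 1.15e-05), and by 2.69 with library totals.

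dap (FBgn0010316, chr2R:9712321-9716256, plus strand) encodes Dacapo, the CIP/KIP inhibitor that holds CycE-Cdk2 in check and stops cells in G1. Its counts were 108, 93 and 94 in UAS-GFP and 982, 827 and 677 in UAS-Antp, or 2.70, 2.91 and 2.58 CPM against 9.18, 6.63 and 6.70 CPM. The controls were tight, and sample A was the highest of the UAS-Antp samples, which all lay above the controls. dap rose by 1.46 ± 0.21 on the log2 scale (adjusted p = 0.000182), and by 2.77 with library totals. As for Dp, the call was lost without UAS-GFP replicate 3 (adjusted p = 0.00123).

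CycE (FBgn0010382, chr2L:15727581-15748150, minus strand), the cyclin that drives entry into S phase, was near the lower end of expression. It had 42, 21 and 49 counts in UAS-GFP and 90, 200 and 228 in UAS-Antp, or 1.05, 0.657 and 1.35 CPM against 0.842, 1.60 and 2.26 CPM. UAS-Antp sample A was below 2 of the controls, and the genotypes overlapped. The log2 fold change was 0.62 ± 0.49 (adjusted p = 0.299), so that a difference in CycE was not detectable at this depth. With library totals it was 1.96, also not past the threshold (adjusted p = 0.00388).

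stg (FBgn0003525, chr3R:29251826-29255800, minus strand) encodes String, the Cdc25 phosphatase that activates Cdk1 at the entry into mitosis. It had 1174, 828 and 1071 counts in UAS-GFP and 1135, 1494 and 1198 in UAS-Antp. The raw counts thus overlapped, while the CPM, 29.4, 25.9 and 29.4 against 10.61, 11.98 and 11.85, did not. stg fell by 1.30 on the log2 scale (SE 0.13, adjusted p = 9.35e-06), but with library totals its log2 fold change was 0.02 (adjusted p = 0.887), so its fall depends on the scaling.

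CycA and CycB encode the mitotic cyclins that pair with Cdk1. CycA (FBgn0000404, chr3L:11826719-11833578, minus strand) had 12, 20 and 28 counts in UAS-GFP and 187, 96 and 70 in UAS-Antp, or 0.301, 0.626 and 0.769 CPM against 1.75, 0.770 and 0.692 CPM. Sample A stood above the other samples, and sample C was within the control range. CycB (FBgn0000405, chr2R:22803521-22806948, minus strand) had 36, 39 and 18 counts against 79, 72 and 52, or 0.902, 1.22 and 0.495 CPM against 0.739, 0.578 and 0.514 CPM. All 3 UAS-Antp samples were within the control range for CycB. The log2 fold changes were 0.92 ± 0.60 for CycA (adjusted p = 0.214) and -0.51 ± 0.56 for CycB (adjusted p = 0.46), the latter turning to 0.78 with library totals (adjusted p = 0.241). For CycA it was 2.22 with library totals (adjusted p = 0.00591).

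PCNA (FBgn0005655, chr2R:20261754-20262883, minus strand) encodes the sliding clamp of DNA replication and is a classic E2F target. It had 0 counts in all 3 UAS-GFP libraries and 40, 34 and 14 counts in UAS-Antp, or 0.374, 0.273 and 0.139 CPM. Against a floor of 3 counts in each control library the UAS-Antp mean was at least 3.12-fold higher. It did not pass the threshold (adjusted p = 0.00861), and it did with edgeR's likelihood ratio test.

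**Figure D2:**
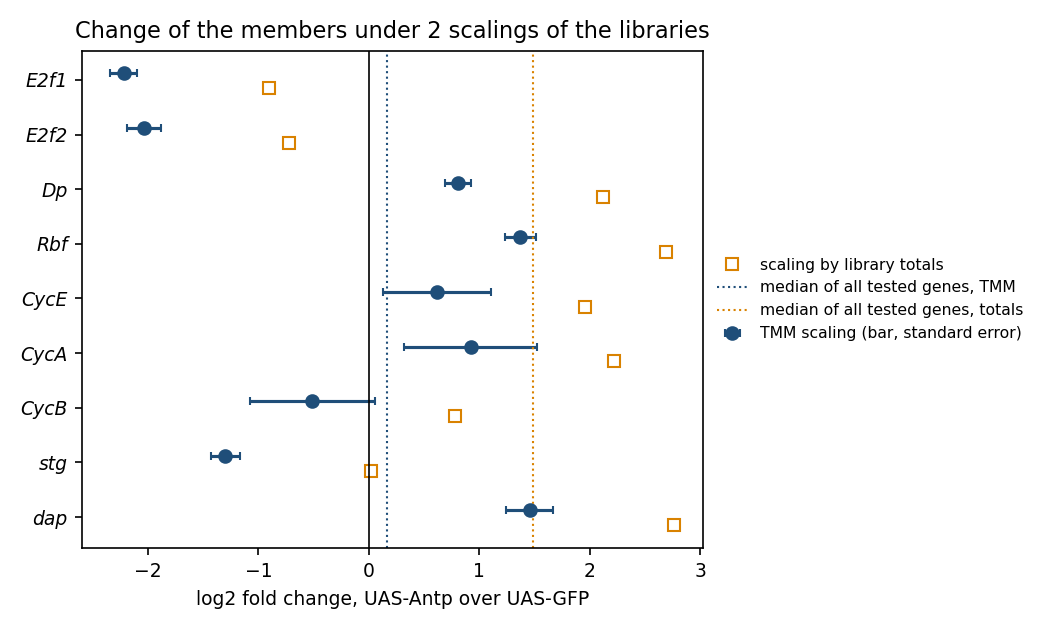
Log2 fold change of 9 of the genes, UAS-Antp over UAS-GFP, with TMM scaling (filled circles, bars are standard errors, n = 3 per genotype) and with library totals (open squares); PCNA, with 0 control counts, is left out. Dotted lines mark the median of all genes tested, 0.17 and 1.48, and E2f1 and E2f2 lie below 0 on both scales, Dp, Rbf and dap above 0 on both, while stg goes from -1.30 to 0.02 and CycB from -0.51 to 0.78.

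Ratios between 2 genes of the same library need no scaling between libraries, and 7 of them were formed among the 10 genes from counts per base of exon. They were chosen after the data had been seen and are given without a test, since 3 against 3 samples cannot give an exact two-sided p below 0.1. The ratio of E2f1 to Rbf, the activator to its inhibitor, was 16.4, 17.3 and 20.0 in UAS-GFP and 1.69, 1.26 and 1.48 in UAS-Antp. The ratio of E2f1 to its partner Dp was 8.26, 6.97 and 8.80 in the controls and 1.01, 0.969 and 0.954 with UAS-Antp. Per base of exon, E2f1 was thus well above Dp in the control muscle and about level with it in the UAS-Antp muscle. The ratio of E2f2 to Rbf went from 2.64, 3.26 and 3.32 to 0.268, 0.239 and 0.360, which moved the repressor E2F from above to below Rbf.

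In contrast, the ratio of E2f1 to E2f2 was 6.23, 5.32 and 6.01 in UAS-GFP and 6.30, 5.30 and 4.11 in UAS-Antp. These values overlapped, with sample C the lowest. The ratio of Dp to Rbf was 1.99, 2.49 and 2.27 against 1.68, 1.31 and 1.55, a smaller shift without overlap. For the pair of genes that act for and against division, the ratio of stg to dap was 8.98, 7.35 and 9.41 in the controls and 0.954, 1.49 and 1.46 with UAS-Antp, so that stg was lower relative to dap whatever the scaling. The ratio of CycE to dap overlapped, at 0.113 to 0.261 in UAS-GFP and 0.0459 to 0.169 in UAS-Antp.

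In RPKM the order of the genes in the control muscle was E2f1 (64.6), E2f2 (11.1), stg (9.22), Dp (8.11), Rbf (3.64), dap (1.08), CycB (0.286), CycE (0.202), CycA (0.194) and PCNA (0). The ranges of stg and Dp overlapped, as did those of CycB, CycE and CycA, and the other neighbours were apart. E2f1 was at percentile 89.7 of all genes tested, and CycE at percentile 12.9. With UAS-Antp the order was Dp (14.2), E2f1 (13.9), Rbf (9.43), stg (3.75), dap (2.97), E2f2 (2.70), CycA (0.367), CycE (0.311), PCNA (0.245) and CycB (0.200). Dp and E2f1 overlapped, as did stg with dap and dap with E2f2, but not stg with E2f2, and as did each of the last 4 genes with the next. E2f1 was then at percentile 75.1 and Dp, formerly at 65.8, at 75.4, while Rbf moved from percentile 50.6 to 67.2 and E2f2 from 71.2 to 39.4.

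The flight muscle markers were lower with UAS-Antp, as the E2f genes were. All 7 of 7 (Act88F, fln, TpnC4, Strn-Mlck, Mhc, Mef2 and salm) were called lower, and their summed level was 220500 to 252900 CPM in UAS-GFP and 27300 to 30610 CPM in UAS-Antp. Act88F, whose promoter also drives the Gal4, went from 75380 to 1400 CPM. In whole dissected muscle, fewer fibre nuclei and less RNA per nucleus cannot be told apart. Glial markers were called higher in 3 of 3 (repo, moody and Gs2, summed 198.9 to 213.8 against 801.5 to 919.1 CPM). Most of this sum was Gs2, which went from 179 to 784 CPM. repo went from 3.60 to 8.97 and moody from 25.2 to 54.2 CPM. The call of repo held in 1 of 6 fits that each left out a sample (adjusted p up to 0.0024). Tracheal markers were called lower in 4 of 4 (btl, trh, verm and serp, summed 657.1 to 705.5 against 143.4 to 213.6 CPM). With library totals the flight muscle sum was still lower (148500 to 156600 against 43750 to 46980), as was the tracheal sum. Of the tracheal markers, however, only serp was then called lower (adjusted p = 0.000589). The lower calls of btl, trh and verm were lost (adjusted p = 0.103, 0.521 and 0.00992), so they depend on the scaling. The myoblast markers, which would mark unfused muscle precursors, summed to 34.09 to 39.29 CPM in UAS-GFP and 23.21 to 25.63 in UAS-Antp, but to 20.77 to 24.33 and 37.21 to 39.34 with library totals, and twi had 0 counts in the controls and 0, 16 and 12 in UAS-Antp samples A, B and C. With TMM none was called among the myoblast (3 of 4 genes tested), hemocyte (5 of 6), neuron (5 of 5) and fat body (6 of 6) markers. Nor was any of the tendon (2 of 2) and germline (1 of 6) markers, and none of 8 eggshell markers passed the filter. Scaled by library totals, the myoblast marker zfh1, the hemocyte markers Pxn, eater and srp and the neuron markers elav, nSyb and para were called higher. So were the fat body markers Lsp2, Fbp1 and apolpp, against 52.1% of all genes tested. Of 10 testis markers only 2 were tested, and 1 was called, tomb (0 against 6.93 CPM). Single UAS-Antp libraries stood apart in the sums of 2 of these lists, and in single testis markers. The hemocyte sum was 57.96 CPM in sample A, against 29.47 and 34.81 in samples B and C and 31.73 to 33.13 in the controls. Of these markers eater (23.3, 5.47 and 7.01 CPM in samples A, B and C), srp and NimC1 were highest in sample A. Hml (1.93, 1.49 and 3.13 CPM), Pxn (17.0, 14.5 and 17.2 CPM) and He were not. The eggshell sum was 5.57 CPM in sample B and at most 0.63 in the other libraries. The testis markers dj, Mst98Ca, Mst84Da and Mst84Db had 88, 38, 17 and 4 counts in sample B and 0 in every other library. Mst87F (26, 2 and 16 counts against 6, 29 and 4) and tomb (0, 0 and 0 against 800, 687 and 789) did not stand apart in sample B. The part of other cell types in the changes of the E2F genes was not tested.

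Mef2, which encodes the general muscle transcription factor and fell by 1.99 on the log2 scale (adjusted p = 3.45e-07), served as a within-library reference, also chosen after the data had been seen. The ratio of E2f1 to Mef2 was 0.982, 1.08 and 1.21 in UAS-GFP and 0.985, 0.883 and 0.897 in UAS-Antp. That of E2f2 to Mef2 was 0.158, 0.203 and 0.201 against 0.156, 0.167 and 0.218. Both ratios overlapped between genotypes. Mef2 had the smallest fall of the 7 flight muscle markers, near those of E2f1 (-2.22) and E2f2 (-2.04). The other markers fell by more than either E2f gene, from -2.29 for Mhc to -5.75 for Act88F. The overlap thus holds for Mef2 as the reference, and ratios to the other markers were not formed. Relative to Mef2, however, Rbf went from 0.0597, 0.0624 and 0.0605 to 0.583, 0.698 and 0.606, and Dp from 0.119, 0.155 and 0.137 to 0.977, 0.911 and 0.940. The ratio of dap to Mef2 went from 0.0152, 0.0208 and 0.0190 to 0.229, 0.179 and 0.182. stg, though lower in CPM, was higher relative to Mef2, at 0.137, 0.153 and 0.179 against 0.218, 0.267 and 0.266. Since Mef2 fell and the median log2 fold change of all genes tested was 0.17, a typical gene also rose relative to Mef2. By their log2 fold changes, Dp (0.81), Rbf (1.37) and dap (1.46) rose more than this median gene. stg (-1.30) rose less than it.

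**Figure D3:**
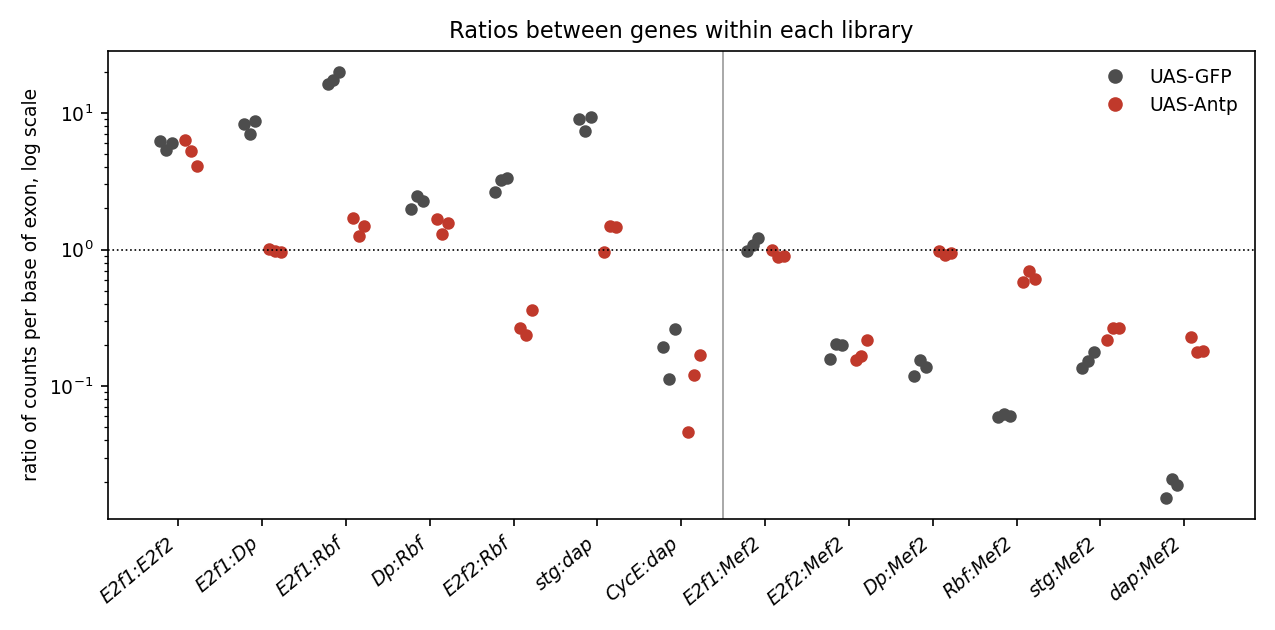
Ratios of counts per base of exon between 2 genes within each library (log axis), for UAS-GFP (grey) and UAS-Antp (red), 3 libraries each; the vertical line separates ratios among the 10 genes from ratios to Mef2. E2f1 to Rbf goes from 16.4 to 20.0 to 1.26 to 1.69, whereas E2f1 to E2f2, CycE to dap, E2f1 to Mef2 and E2f2 to Mef2 overlap.

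Genes that work beside these 10 were read in 4 lists. The first held 9 partners of Rbf and E2f2 in the repressor complex dREAM and its relatives. Of 8 tested, 2 were called higher and none lower (25% called against 35.6% of all genes tested, median log2 fold change 0.56 against 0.17). With library totals all 8 were called higher, against 52.1% of all genes. The 2 called with TMM were HDAC1, a histone deacetylase (5.49 ± 0.88 to 13.5 ± 0.64 CPM, adjusted p = 8.55e-05), and mip130, a core subunit of the complex (14.4 ± 3.15 to 27.9 ± 1.38 CPM, adjusted p = 0.000584). The call of mip130 held in 1 of 6 fits that each left out a sample, with adjusted p up to 0.00408. At an adjusted p of 0.05, which 60.8% of all genes passed (32.7% higher and 28.1% lower), 4 were higher and 2 lower. Myb, the activating subunit, had 31.8 ± 1.00 and 26.3 ± 0.27 CPM (log2 fold change -0.27, adjusted p = 0.0452, and 1.04 with library totals), though its counts are the same as those of CG46440, which covers the same exons. Rbf2, the second retinoblastoma gene, had 2, 0 and 0 counts against 43, 6 and 4 and was too low to be tested.

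Of the regulators of the G1 to S transition, 13 of 14 were tested, and 2 were called higher and 4 lower (46.2% against 35.6% of all genes tested, median log2 fold change -0.01 against 0.17). With library totals 7 of the 13 were called higher and none lower, against 52.1% and 7.19% of all genes. Each of the 4 lower calls thus depends on the scaling. trbl encodes Tribbles, a pseudokinase that promotes the breakdown of String protein. It was placed in this list although String acts at the entry into mitosis. Its counts were 383, 336 and 429 in UAS-GFP and 7508, 9162 and 7582 in UAS-Antp. It rose 6.86-fold, from 10.6 ± 1.10 to 72.9 ± 2.44 CPM (log2 fold change 2.78 ± 0.12, adjusted p = 2.65e-08), without overlap. The kinase gene Cdk7, part of the Cdk-activating kinase, went from 6.58 ± 1.69 to 14.4 ± 1.33 CPM (adjusted p = 0.000716), a call that held in 1 of 6 fits with a sample left out (adjusted p up to 0.00422).

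CycG, which encodes an atypical cyclin, fell from 1422 ± 124 to 411 ± 14.6 CPM (log2 fold change -1.79 ± 0.11, adjusted p = 2.17e-07; -0.47 and adjusted p = 0.00132 with library totals). Cks85A, which encodes a small Cdk-binding subunit, fell from 121 ± 15.8 to 36.9 ± 1.81 CPM (log2 fold change -1.71 ± 0.12, adjusted p = 7.95e-07; -0.40 and adjusted p = 0.0191 with library totals). Cul1 and ago encode the scaffold and the F-box protein of the ubiquitin ligase that removes CycE. On the log2 scale Cul1 fell by 0.86 (adjusted p = 3.78e-05) and ago by 0.67 (adjusted p = 0.000189), but both changed sign with library totals, to 0.46 (adjusted p = 0.00271) and 0.64 (adjusted p = 0.000395), the value of ago being past the threshold in the other direction. The lower call of ago was also lost without UAS-Antp sample B (adjusted p = 0.00131) and without sample C (adjusted p = 0.0011).

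The Cdk partners of the cyclins did not pass the threshold with TMM scaling. Cdk1 had 9, 2 and 14 counts against 34, 2 and 10, with a log2 fold change of -0.65 ± 1.13 (adjusted p = 0.648) that was 0.66 with library totals. Cdk2 had 6, 0 and 8 counts against 4, 19 and 9 and was too low to be tested. The S and M phase kinases were thus close to the floor of 3 counts in several libraries of both genotypes. Cdk4 had 9.62 ± 1.62 and 9.55 ± 1.11 CPM (log2 fold change -0.01), and with library totals it was called higher (1.30, adjusted p = 0.000133). Its partner CycD had 9.66 ± 0.42 and 6.67 ± 0.84 CPM (log2 fold change -0.53, adjusted p = 0.0169, 0.78 with library totals).

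Of 43 DNA replication genes, 36 passed the filter on low counts. In the controls 8 of the 43 were at or below 3 counts in all 3 libraries, and in UAS-Antp 2 were. Over all 17611 genes counted these numbers were 7266 and 5367. A floor of 3 counts is a lower CPM in UAS-Antp, where the TMM-scaled library sizes were 101112558 to 124676846 against 31971595 to 39935092. The test called 2 higher and 1 lower (8.33% against 35.6% of all genes tested, median log2 fold change 0.65 against 0.17), and at an adjusted p of 0.05 it called 12 higher and 4 lower, against 60.8% of all genes. With library totals 14 of the 36 were called higher and 1 lower, against 52.1% and 7.19% of all genes. The share called was below that of all genes at both thresholds, and many of these genes had few counts. RpA-70, which encodes the large subunit of the single-strand binding protein RPA, fell 6.31-fold, from 125 ± 5.57 to 19.8 ± 1.91 CPM (log2 fold change -2.66 ± 0.12, adjusted p = 2.59e-08), and by 1.34 with library totals. Its counts were 4954, 4190 and 4370 against 1895, 2675 and 2048. The other subunits, RPA2 and RPA3, had log2 fold changes of 1.70 (adjusted p = 0.203) and -1.32 (adjusted p = 0.00809; 0.00 with library totals). These were named after their values had been seen, as were the next 2 genes.

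The 2 replication genes called higher at 0.001 were RfC38, a subunit of the loader that places PCNA on DNA, and DNAlig1, the ligase that joins Okazaki fragments. RfC38 had 32, 26 and 26 counts against 500, 420 and 431 (5.29-fold, adjusted p = 5.45e-05). DNAlig1 had 10, 6 and 8 counts against 233, 172 and 166 (7.91-fold, adjusted p = 0.000409), and its call was lost in all 6 fits with a sample left out (adjusted p 0.00125 to 0.00224). Both were above the controls in all 3 UAS-Antp samples. RnrL and RnrS encode ribonucleotide reductase, the enzyme that makes deoxynucleotides. RnrL had 4.75 ± 2.39 and 1.30 ± 0.31 CPM (adjusted p = 0.00191; log2 fold change -1.87, or -0.54 with library totals), and RnrS 0.123 ± 0.112 and 0.374 ± 0.137 CPM (adjusted p = 0.208). geminin, an inhibitor of origin licensing, had 18.1 ± 3.64 and 20.1 ± 1.27 CPM (log2 fold change 0.16, adjusted p = 0.423), and with library totals it was called higher (1.48, adjusted p = 9.43e-06).

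Of 44 genes for G2 and mitosis, 26 were tested, and 4 were called higher and none lower (15.4% against 35.6% of all genes tested, of which 16.3% were higher; median log2 fold change 0.56 against 0.17). The share called higher was thus near that of all genes. At an adjusted p of 0.05 there were 11 higher and 1 lower, against 32.7% and 28.1% of all genes. With library totals 13 of the 26 were called higher and none lower, against 52.1% and 7.19% of all genes. In the controls 13 of the 44 were at or below 3 counts in every library, and in UAS-Antp 2 were. Over all 17611 genes counted, 7266 and 5367 were, and the same floor is a lower CPM in UAS-Antp. Top2, the topoisomerase that untangles sister chromatids, had 36, 36 and 14 counts against 1173, 1122 and 942, and rose from 0.804 ± 0.380 to 9.76 ± 1.06 CPM (log2 fold change 3.61 ± 0.34, adjusted p = 5.91e-06). fzr, which encodes the Cdh1-type activator that turns the anaphase-promoting complex against mitotic cyclins, rose 3.90-fold, from 9.03 ± 0.63 to 35.2 ± 3.19 CPM (adjusted p = 5.21e-07). All 3 UAS-Antp samples were above the controls for both genes.

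The other 2 called genes, barr and Cap-G, encode subunits of condensin, the ring that compacts chromosomes. barr rose from 2.17 ± 0.16 to 8.66 ± 0.59 CPM (adjusted p = 7.3e-06) and Cap-G from 3.54 ± 0.51 to 9.04 ± 1.32 CPM (adjusted p = 0.000193). The call of Cap-G was lost without UAS-GFP replicate 2 (adjusted p = 0.00111) and without UAS-GFP replicate 3 (adjusted p = 0.00148). The other condensin subunits in the list, looked at after the calls were known, did not pass the threshold. Their log2 fold changes were 1.08 for SMC2 (adjusted p = 0.00487), 0.55 for glu (adjusted p = 0.0247) and 1.08 for Cap-D2 (adjusted p = 0.0465), each with all UAS-Antp samples above the controls, and each was called higher with library totals (2.41, 1.88 and 2.41).

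**Figure D4:**
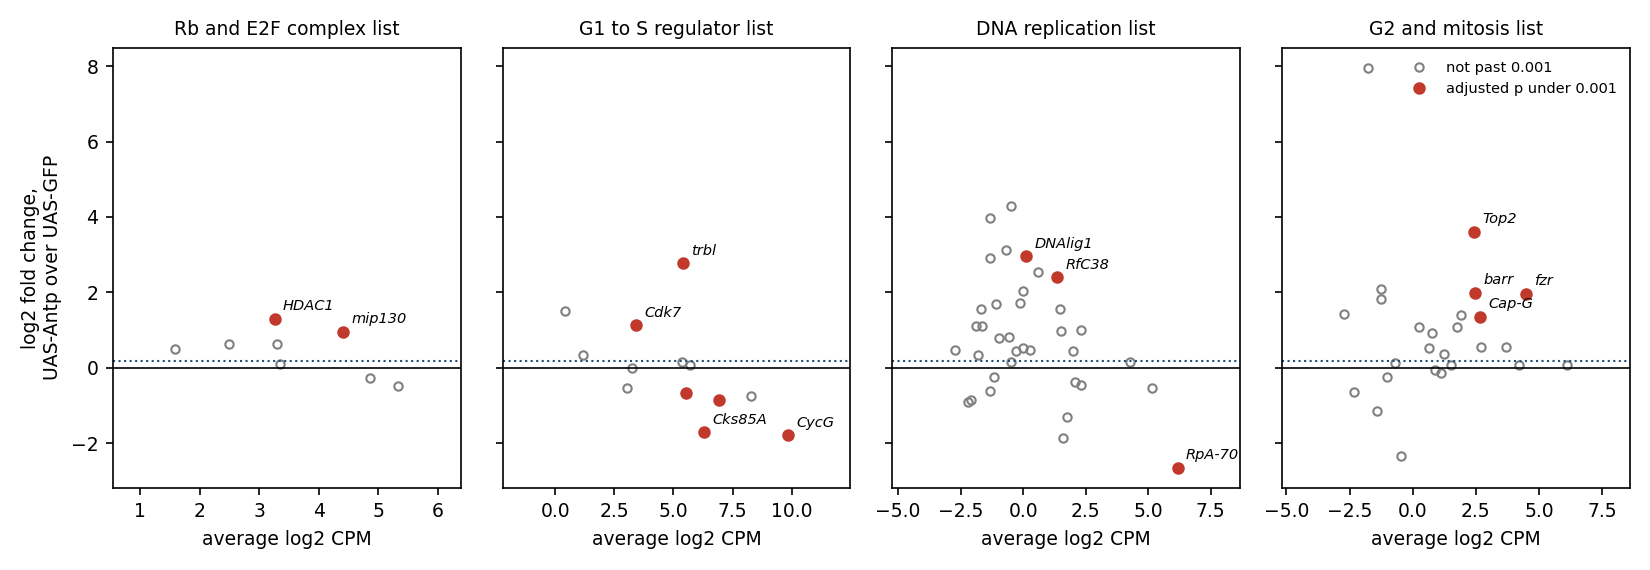
Log2 fold change, UAS-Antp over UAS-GFP with TMM scaling, against average log2 CPM for the tested genes of the 4 lists; filled points passed an adjusted p of 0.001, and the dotted line is the median of all genes, 0.17. Top2, DNAlig1 and trbl have the highest log2 fold changes among the labelled genes, RpA-70, CycG and Cks85A fall, of which RpA-70 alone stays past the threshold with library totals, and the 2 unlabelled filled points, Cul1 and ago, turn positive with library totals.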

How the data were processed

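The raw counts per gene were deposited by the authors. The labels name featureCounts of the Subread package and build dm6, and the table uses FlyBase annotation 6.42. The aligner and its settings are not given in the sources used here. Symbols came from the deposited comparison table (17582 of 17611 genes) and a gene name table (29); that table's other columns hold the authors' fold changes and p-values from DESeq2 and were not used. Both mates of a pair appear to have been counted, since 75.0% to 81.0% of genes with 5 to 50 counts had even counts. CG8112, whose 2229 exon bases all lie opposite Cks85A, had 38 to 57 counts in UAS-GFP where Cks85A had at least 4096, so the strands were counted apart. The spans of all 10 genes equal those of the Ensembl annotation.

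Counts were tested with edgeR 4.0.16 in R 4.3.3 (filterByExpr, TMM, quasi-likelihood test, Benjamini-Hochberg adjustment over 9546 genes, threshold 0.001), all 6 samples in 1 fit. Standard errors are the log2 fold change over the root of F, and folds are ratios of mean CPM. The code was tested on simulated data. The alternatives were 4 scalings, 2 filters on low counts, edgeR's likelihood ratio test, DESeq2 1.42.0, a threshold of 0.05 and leaving out each sample; ratios within libraries were added after seeing the data. In each list, up to 4 called genes per direction with an average log2 CPM of at least 2 were named, with the partners Cdk1, Cdk2, Cdk4, CycD, fzr, Rbf2, Myb, RnrL, RnrS and geminin. The members and lists were chosen with earlier results of these data known.

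The UAS-Antp columns match the genotype but not single labels, so their samples carry letters. The labels call the samples independent, while the study's methods speak of technical replicates, so p-values measure only the spread between these samples, which may be technical. Promoter and protein sequences were not analysed here. Floors of 3 counts cover counting error only.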

Additional observations from a re-analysis of the deposited data

How the results depend on the processing

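Of the 10 genes, 6 were called in the main test, 4 with library totals (E2f2 and stg lost), 7 with edgeR's likelihood ratio test and at a threshold of 0.05 (PCNA gained), 6 under the 6 other settings, and 4 to 6 with a sample left out. Library totals gave 5655 calls over all genes, or 59.2% of those tested. They gave 8 in the Rb and E2F complex list, 15 in the replication list and 13 in the G2 and mitosis list. In the G1 to S list they gave 7 higher and 0 lower against 2 and 4. A threshold of 0.05 gave 5807 calls over all genes (60.8%), and 6, 16 and 12 in the Rb and E2F complex, replication and mitosis lists. The replication list had 7 calls without the filter on low counts, 10 with the likelihood ratio test and 9 with DESeq2's Wald test, against 3, and the Rb and E2F complex list had 1 call with DESeq2's size factors, against 2. With a sample left out, calls ranged from 2758 to 3043 over all genes, 1 to 2 in the Rb and E2F complex list, 4 to 6 in the G1 to S list, 2 to 4 in the replication list and 3 to 5 in the G2 and mitosis list. With library totals the sign changed for CycB (0.78), stg (0.023), Cul1 (0.46), ago (0.64), Cdk1 (0.66), Cdk4 (1.30), CycD (0.78) and Myb (1.04), and that of Cdk4 also with upper quartile scaling (0.028), while the values of Cdk4 with a sample left out ranged from -0.134 to 0.088. Of 446 values of 30 genes over 15 settings, 405 kept their direction and side of the threshold. The cause of these differences was not tested, except that library totals differ from TMM by 1.32 on the log2 scale for the median gene. No paired analysis was possible because the labels number the samples of the genotypes 1 to 3 and 4 to 6. Depth limits the cyclin, Cdk1, Cdk2 and PCNA values.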

Other observations

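Several replication and mitosis genes near the floor in the control muscle had more counts in every UAS-Antp library without passing the threshold, and those below were chosen after their values had been seen. Psf1, a subunit of the GINS complex of the replicative helicase, had 0, 6 and 0 counts in UAS-GFP and 147, 134 and 108 in UAS-Antp (adjusted p = 0.00624). DNApol-alpha60, a primase subunit, had 2, 0 and 2 counts against 84, 78 and 38, at least 7.11-fold higher against the floor of 3 counts per library (adjusted p = 0.00494). The origin recognition genes Orc1 and Orc4 had 4, 2 and 2 counts against 55, 64 and 66 (adjusted p = 0.00747), and 32, 12 and 2 against 185, 403 and 230 (adjusted p = 0.00901). polo, a mitotic kinase gene, had 0, 0 and 0 counts against 17, 108 and 24, at least 5.02-fold higher (adjusted p = 0.00708). Most of these counts were in sample B, where the eggshell markers summed to 5.57 CPM, against 0 in sample A and 0.24 in sample C. A link between polo and these markers was not tested. With library totals Psf1, DNApol-alpha60, Orc1 and Orc4 passed the threshold (adjusted p 0.000412 to 0.000612), and polo did not (adjusted p = 0.00146).

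Other genes of the same lists did not share this. Mcm5, a subunit of the replicative helicase, had 0, 0 and 0 counts against 0, 0 and 6, and the mitotic regulator gene pim had 0, 0 and 0 against 0, 0 and 8. aurB, a mitotic kinase gene, had 51, 46 and 41 counts against 58, 10 and 14 (log2 fold change -2.33, adjusted p = 0.0229, and -1.05 with library totals). Over the replication list, the genotypes did not overlap for 19 of 36 tested genes (13 higher and 6 lower with UAS-Antp), and over the G2 and mitosis list for 14 of 26 (13 higher and 1 lower), or 52.8% and 53.8%, against 68.3% of all genes tested.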
